A study of Homo sapiens with 12 samples.

Results

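The comparison set the clone shCXCR4_I, in which CXCR4 was knocked down with a short hairpin RNA (shRNA), against the untransfected IGROV-1 cells, called Parental. IGROV-1 is an established human ovarian cancer cell line. The members are the 3 arrays of shCXCR4_I and the 3 arrays of Parental, 6 of the 12 arrays of the series. On these arrays all 41097 of the 54675 probe sets that carry exactly 1 gene symbol were used, and they stand for 19775 genes. A probe set is a group of short oligonucleotides on the Affymetrix Human Genome U133 Plus 2.0 array that reports 1 transcript or a few. Every level is a deposited log2 value, so a difference of 1 is a 2-fold change.

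All cells grew in RPMI 1640 medium with fetal calf serum, and 6 µg of total RNA went into each labelling. shCXCR4_I was made by lipid transfection of a plasmid with an shRNA against CXCR4 and 30 days of selection in 4 µg/ml puromycin, and it is 1 individual clone. The other groups of the series were treated the same way. They are shCXCR4_II, an individual clone with another CXCR4 shRNA sequence, and Mock, a pool of clones with a scrambled sequence. Their values stand beside those of shCXCR4_I for reference, and Mock was not the control here. Against Parental, the CXCR4 shRNA, the transfection, the puromycin selection and the origin from 1 clone change together and cannot be told apart. The labels do not say whether the 3 arrays of a group came from separate cultures, so a p-value here reflects no more than how these arrays scatter, and that scatter may be technical.

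CXCR4 is a G protein-coupled receptor on the cell surface that binds the chemokine CXCL12. It acts through Gi proteins and beta-arrestins on calcium, the ERK kinases, AKT and the cytoskeleton, and cells that carry it move towards CXCL12. In ovarian cancer it is known for its part in the spread of tumour cells over the peritoneum, and ACKR3 is another receptor for the same ligand.

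The 6 arrays had median log2 values between 4.301 and 4.344 over all probe sets. Arrays correlated at 0.997 to 0.9977 within their group and at 0.9932 to 0.994 between the groups. The epithelial markers EPCAM, CDH1, KRT7, KRT8, KRT18 and KRT19 lay between 7.88 and 11.63 in Parental and between 8.06 and 11.98 in shCXCR4_I. The ovarian carcinoma markers PAX8 (10.21 and 10.20) and FOLR1 (11.68 and 11.59) were high in both, whereas MUC16, which encodes the antigen CA125, was low at 3.25 and 2.80. The other markers of this class lay between, with WT1 at 6.27 and 6.33, WFDC2 at 5.36 and 5.28 and MSLN at 5.26 and 4.96. Of the markers of other cell types, leukocyte genes lay between 2.37 and 5.31 in Parental and between 2.25 and 5.48 in shCXCR4_I. Endothelial genes reached from 2.79 to 6.45 and from 2.53 to 6.69, with PECAM1 the highest, fibroblast genes from 1.90 to 6.70 and from 1.94 to 6.78, with COL1A1 the highest, and mesothelial genes from 4.23 to 7.60 and from 4.34 to 7.67, with LRRN4 the highest. Their part in the results was not tested.

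CXCR4 itself was lower in the clone. On probe set 217028_at the log2 values were 8.42, 8.28 and 8.30 on the Parental arrays and 7.06, 7.10 and 7.11 on the shCXCR4_I arrays. All 3 arrays of the clone lay below all 3 Parental arrays, and the arrays of each group were close together. The log2 fold change was -1.24 (SE 0.09, limma adjusted p = 6.27e-07), which left 42.3% of the Parental level. The other probe sets of the gene gave smaller falls, with 56.5% left on 209201_x_at and 61.2% left on 211919_s_at. On 217028_at the clone shCXCR4_I kept more CXCR4 than shCXCR4_II, whose mean was 6.62, and the difference of 0.47 passed the test (limma adjusted p = 0.009). The clones were closer on the other probe sets, with means in shCXCR4_I and shCXCR4_II of 6.73 and 6.56 on 211919_s_at and of 6.70 and 6.44 on 209201_x_at. The ligand CXCL12 was low at 4.81 in Parental and 4.85 in shCXCR4_I, and ACKR3 was near the bottom of the scale at 3.02 and 3.12. Their log2 fold changes of 0.04 and 0.10 did not pass the test (limma adjusted p = 0.848 and 0.481).

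In the pathway around the receptor, 0 of 21 measured genes rose and 7 fell, where 7.06% of all genes rose and 7.44% fell. Each list count against Parental below is to be read beside these shares. Besides CXCR4, the target itself, the falls were the cytokine IL6 (-0.85) and the G protein subunits GNB1 (-0.46) and GNAI1 (-0.29). The others were the beta-arrestin ARRB1 (-0.46), the angiogenic factor VEGFA (-0.41) and the transcription factor STAT3 (-0.23). In Mock against Parental 1 of the 21 rose and 2 fell, and in shCXCR4_II 0 rose and 6 fell. ARRB1 was lower in Mock (6.32) than in shCXCR4_I (6.42), whereas IL6 (4.73) and GNB1 (9.85) were higher in Mock than in shCXCR4_I. IL6 stood at 4.84, 4.73 and 4.86 on the Parental arrays and at 3.91, 3.91 and 4.06 on the shCXCR4_I arrays. It was thus low in both groups, and the groups did not overlap. The median of the 21 log2 fold changes was -0.08, against 0.02 over all genes. When a change had to exceed 1.2-fold in the test itself, 2 of the 7 falls remained past it, and without probe sets named _x_at or _s_at, which can bind several transcripts, 4 of 15 genes fell.

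Across the array, the clone differed from Parental at 2868 genes (14.5% of those tested, limma, Benjamini-Hochberg adjusted p under 0.05), 1397 higher and 1471 lower. Most of these differences were small. The median size among them was 0.38 on the log2 scale, and 419 of them were under 1.2-fold. At least 2-fold changes were found for 143 genes (0.723%), of which 48 were higher (0.243%) and 95 lower (0.48%). For 29 of the 143 the lower group had a mean below the array median, so that the size of their fold change is poorly fixed. Where a gene past the test had further probe sets, 1242 of those 4092 gave the same call, 15 the opposite call and 2835 none. Falls outnumbered rises, by more among the 2-fold changes. The split over all changes moved with the scaling of the arrays, from 40.45% higher after centring each array on its median to 55.54%, where rises are in the majority, after quantile normalization, against 48.71% as deposited.

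The leading genes named here had a mean log2 value of at least 6 in the higher group. The largest rises among them included a lectin, an immediate early transcription factor, a matrix protein, an enzyme of retinoid metabolism and a chemokine. LGALS3, which encodes the sugar-binding protein galectin-3, stood at 8.09, 8.16 and 8.16 on the Parental arrays and at 10.74, 10.81 and 10.75 on the shCXCR4_I arrays. The groups did not overlap for this gene or for any of the other 23 leading genes, since that was a condition of the rule that named them; over all genes the arrays did not overlap upward for 21.2% and downward for 17.5%. LGALS3 rose 6.19-fold, a log2 fold change of 2.63 (SE 0.08, limma adjusted p = 1.68e-10). Its other probe set, 1557197_a_at, was at 2.08 in Parental and 2.09 in the clone and showed no call, and the gene's rise thus rests on 1 probe set named _s_at. FOS, an immediate early transcription factor, rose from 5.19, 5.28 and 5.37 to 7.49, 7.70 and 7.72 (log2 fold change 2.36, SE 0.09, limma adjusted p = 1.07e-09). NPNT, a matrix protein that integrins bind, rose from 6.23, 6.30 and 6.18 to 8.50, 8.48 and 8.43 (2.23, SE 0.07). ALDH1A3, an enzyme that makes retinoic acid, rose from 4.82, 4.25 and 4.40 to 6.56, 6.56 and 6.48 (2.04, SE 0.11).

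The other 8 leading rises lay between 1.64 and 2.04. They were UNC93A (2.04), the antisense RNA VAC14-AS1 (2.03), the neutrophil-attracting chemokine CXCL1 (2.00), the cytokine IL32 (1.86), the matricellular protein CCN3 (1.84), the secreted FGF carrier FGFBP1 (1.82), SHISA3 (1.66) and PLAU (1.64), the protease urokinase that activates plasminogen. The 3 other groups did not order alike over these genes. SHISA3 was highest in Mock, at 10.89, against 8.67 in shCXCR4_I and 7.01 in Parental. FGFBP1 was also high in Mock, at 9.34 against 9.64 in shCXCR4_I, whereas NPNT was 6.57 in Mock and 8.32 in shCXCR4_II.

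**Figure D1:**
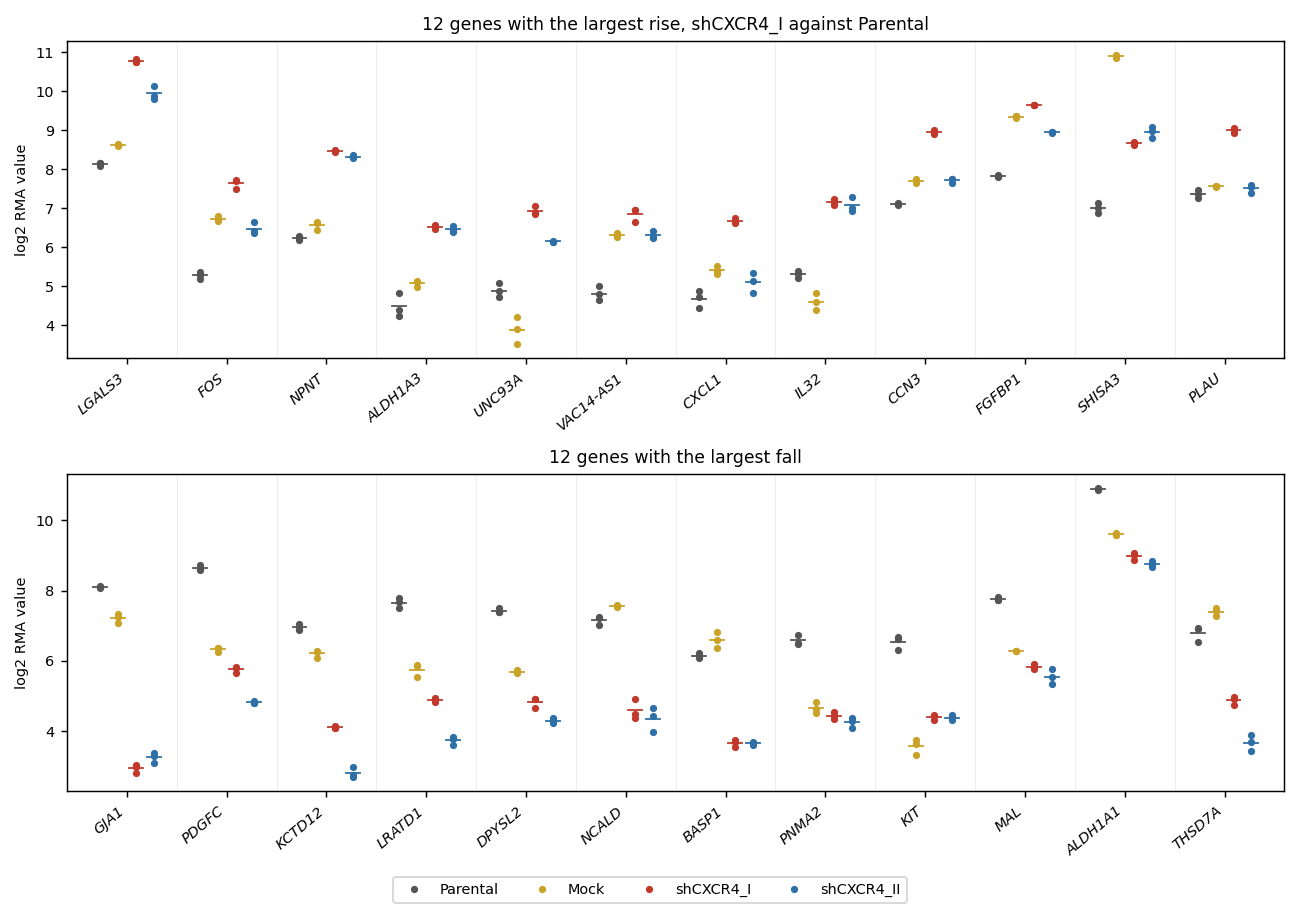
The log2 value (y axis) of the 12 genes with the largest rise (upper panel) and the 12 with the largest fall (lower panel) from Parental to shCXCR4_I, with a point for each of the 3 arrays per group and a bar at the group mean. The shCXCR4_I points of GJA1 lie near 2.94 against 8.11 in Parental, and SHISA3 is higher in Mock than in shCXCR4_I.

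The largest falls among genes with a mean of at least 6 in the higher group reached lower than the rises reached high. DACH1, at a mean of 5.50 in Parental, was left out by that limit, though its log2 fold change was -2.91. GJA1 encodes connexin 43, the channel protein of gap junctions, through which neighbouring cells exchange small molecules. It stood at 8.11, 8.14 and 8.09 on the Parental arrays and at 2.81, 3.03 and 2.99 on the shCXCR4_I arrays. The clone's values lay below the array median, in the range of genes that give little or no signal, and the log2 fold change of -5.17 (SE 0.09, limma adjusted p = 3.96e-13) describes the deposited values rather than an exact ratio. Mock kept 7.21, and shCXCR4_II had 3.25. Of the 13 measured gap junction genes 2 rose and 2 fell. After GJA1 the largest values were those of GJB1 at 0.34 and of GJC1, another connexin gene, which fell, at -0.32 (limma adjusted p = 0.0296).

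A growth factor and a growth factor receptor were among the falls. PDGFC, a ligand of the PDGF receptors, went from 8.58, 8.60 and 8.74 to 5.80, 5.66 and 5.83 (log2 fold change -2.88, SE 0.07, limma adjusted p = 2.54e-11). KIT, the receptor tyrosine kinase for stem cell factor, went from 6.68, 6.31 and 6.62 to 4.43, 4.46 and 4.33 (-2.13, SE 0.11, limma adjusted p = 2.49e-08). Both genes were also lower in Mock than in Parental, at 6.33 and 3.57, and KIT in Mock was below its level in the clone. KCTD12, an auxiliary subunit of GABA-B receptors, went from 6.89, 7.06 and 6.91 to 4.09, 4.10 and 4.16 (-2.84, SE 0.09).

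The other 8 leading falls reached from -2.77 to -1.91. They include DPYSL2 (-2.60), a microtubule-binding protein of axon growth, NCALD (-2.57), a calcium sensor, BASP1 (-2.48), a membrane-bound protein, and PNMA2 (-2.14). LRATD1 (-2.77), the membrane proteolipid MAL (-1.93), the retinaldehyde dehydrogenase ALDH1A1 (-1.91) and THSD7A (-1.91) complete the 12. ALDH1A1 was strongly expressed and went from 10.91, 10.88 and 10.92 to 8.87, 9.02 and 9.09 while its relative ALDH1A3 rose. Of the 19 measured aldehyde dehydrogenases, 3 rose and 2 fell. NCALD and LRATD1 were called on a probe set named _s_at, and on the brightest of their other probe sets neither passed the test. For LRATD1 the probe sets differ, since 228319_at gave -0.02 while 228459_at fell by 0.80 and 234331_s_at by 2.69.

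CXCL1, CXCL2, CXCL3 and CXCL8, chemokines that attract neutrophils through the receptor CXCR2, rose in the clone. CXCL1 stood at 4.88, 4.43 and 4.73 on the Parental arrays and at 6.63, 6.76 and 6.66 on the shCXCR4_I arrays. CXCL8, also called interleukin 8, stood at 5.05, 4.98 and 5.08 and at 6.08, 6.05 and 6.00. CXCL3 stood at 6.89, 6.96 and 7.07 and at 7.97 on each array of the clone. For all of these genes the lowest array of the clone lay above the highest Parental array. The rises were 4.02-fold for CXCL1 (limma adjusted p = 1.73e-07), 2.01-fold for CXCL8 (1.72e-07) and 2.00-fold for CXCL3 (1.86e-05). CXCL2 rose too, from 7.30, 7.40 and 7.45 to 8.35, 8.45 and 8.40, but it was read on 209774_x_at, and its call ended without such probe sets. CXCL1, CXCL2 and CXCL3 are close copies of each other, so that their signals can share transcripts and are uncertain in that respect.

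CXCL1, CXCL8 and CXCL3 also set the clone apart from the other groups. That was a condition of a rule that named them, and the differences from shCXCR4_II given here were part of it. CXCL1 averaged 5.41 in Mock and 5.11 in shCXCR4_II, CXCL8 4.44 and 4.41, and CXCL3 6.84 and 7.07. shCXCR4_I exceeded shCXCR4_II by 1.58 for CXCL1 (limma adjusted p = 8.98e-06), by 1.63 for CXCL8 (2.38e-08) and by 0.90 for CXCL3 (0.000196), where 5.21% of all genes differed between the clones and 3.56% were higher in shCXCR4_I. Of the 28 measured cytokine and chemokine genes, 8 rose against Parental and 2 fell, with a median of 0.07. Besides the chemokines and IL32 the rises were LIF (0.46), CCL28 (0.32) and CSF1 (0.31), and the falls were IL6 (-0.85) and IL18 (-0.73). With a minimum fold of 1.2, 5 of 28 rose, and without probe sets named _x_at or _s_at, 4 of 23.

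The stretch before the start site of each of these chemokine genes is shown because the 4 of them share a run of letters there. The sequences are the 250 bases before the start that RefSeq lists on GRCh38.p14, written 5′ to 3′ on the strand of the gene, with GGAATTTCC, a form of the NF-kappaB site, in capitals.
CXCL1: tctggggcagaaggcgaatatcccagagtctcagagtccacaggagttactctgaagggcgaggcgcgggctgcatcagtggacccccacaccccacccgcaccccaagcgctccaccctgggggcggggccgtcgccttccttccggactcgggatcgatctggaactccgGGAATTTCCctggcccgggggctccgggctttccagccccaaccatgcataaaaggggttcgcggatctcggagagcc
CXCL2: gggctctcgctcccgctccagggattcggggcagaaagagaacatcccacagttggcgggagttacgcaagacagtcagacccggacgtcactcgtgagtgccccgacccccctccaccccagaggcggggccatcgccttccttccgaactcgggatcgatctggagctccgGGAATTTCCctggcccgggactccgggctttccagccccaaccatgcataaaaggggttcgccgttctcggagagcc
CXCL3: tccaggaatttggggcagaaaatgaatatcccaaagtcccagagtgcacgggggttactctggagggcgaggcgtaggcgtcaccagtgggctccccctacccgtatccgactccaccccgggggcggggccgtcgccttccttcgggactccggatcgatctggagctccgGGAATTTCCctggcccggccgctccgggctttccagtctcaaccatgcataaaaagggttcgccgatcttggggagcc
CXCL8: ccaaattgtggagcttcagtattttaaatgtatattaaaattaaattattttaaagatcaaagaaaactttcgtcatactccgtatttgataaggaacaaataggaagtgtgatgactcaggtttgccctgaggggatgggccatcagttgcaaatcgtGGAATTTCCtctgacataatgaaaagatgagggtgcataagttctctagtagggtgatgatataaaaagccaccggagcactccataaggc
They lie on chromosome 4 at chr4:73869143-73869392 (CXCL1, plus strand), chr4:74099196-74099445 (CXCL2, minus strand), chr4:74038690-74038939 (CXCL3, minus strand) and chr4:73740319-73740568 (CXCL8, plus strand). The first letter of the run is 78 bases before the start in CXCL1 and CXCL3, 77 in CXCL2 and 91 in CXCL8. Searched on both strands, GGAATTTCC was present in 4 of the 6 cytokine genes that rose and have a RefSeq promoter, and in 0.507% of the 15384 tested genes with one. CXCL1, CXCL2 and CXCL3 also share the letters on both sides of the run. As close copies they do not count as separate matches beside that share. Such a match is a description of the letters and not of binding. Of the 19 measured pathway members and feedback targets of NF-kappaB 1 rose and 6 fell, where 7.06% of all genes rose and 7.44% fell. The rise was IKBKG (0.59), a subunit of the IkappaB kinase, at 7.81 in shCXCR4_I, 7.72 in shCXCR4_II and 7.28 in Mock. The falls included TNFAIP2 (-0.38) and the inhibitors TNIP1 (-0.71, a call that ended without _x_at and _s_at probe sets), NFKBIE (-0.49) and TNFAIP3 (-0.37). Without probe sets named _x_at or _s_at, 1 of 14 fell.

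FOS, EGR1 and other immediate early genes rose as well. Such genes are switched on within minutes of a growth factor signal and encode transcription factors and the phosphatases that end the signal. EGR1, a zinc finger transcription factor, stood at 9.12, 9.52 and 9.65 on the Parental arrays and at 10.70, 10.89 and 10.80 on the shCXCR4_I arrays. The Parental arrays were more spread than those of the clone, and the groups did not overlap (log2 fold change 1.37, SE 0.14, limma adjusted p = 2.46e-05). EGR1 was 9.94 in Mock and 10.21 in shCXCR4_II. FOS was 6.72 in Mock and 6.47 in shCXCR4_II, against 5.28 in Parental. PHLDA1 was 6.99 in Parental, 7.93 in shCXCR4_I, 7.80 in Mock and 6.61 in shCXCR4_II. Among the 32 measured genes of ERK feedback and EGF receptor ligands, 11 rose and 2 fell, with a median of 0.12. Over all genes, 7.06% rose and 7.44% fell. The rises included FOS (2.36), PHLDA1 (0.94), the EGF receptor relative ERBB3 (0.90), the phosphatase DUSP1 (0.80), IER3 (0.57), JUNB (0.50) and FOSL1 (0.49). The falls were ERBB4 (-1.59), another receptor of that family, and the phosphatase DUSP4 (-0.68). ERBB4 went from 7.51, 7.66 and 7.59 to 6.13, 5.80 and 6.05. With a minimum fold of 1.2, 6 of 32 rose, and without probe sets named _x_at or _s_at, 7 of 27. In Mock against Parental, 13 of the 32 rose and 5 fell, where 8.08% of all genes rose and 4.41% fell. In shCXCR4_II against Parental, 4 rose and 9 fell.

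Genes of mitosis fell almost as a whole. Of 36 measured genes that encode mitotic cyclins, kinases, spindle motors, checkpoint and kinetochore proteins, 33 fell and 0 rose (limma), where 7.44% of all genes fell. At an unadjusted p under 0.05, 35 were lower and 0 higher. The falls were modest and even. They ran from -0.71 to -0.28 on the log2 scale, with a median of -0.52 over the 36. The 3 that did not pass were BUB3 (-0.18), MAD2L1 (-0.10) and CENPA (-0.19). In RNA from whole cultures, fewer cells in mitosis and less of these RNAs in each cell cannot be told apart.

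The kinesin KIF20A, a motor of cytokinesis, stood at 8.54, 8.59 and 8.54 on the Parental arrays and at 7.83, 7.84 and 7.88 on the shCXCR4_I arrays (log2 fold change -0.71, SE 0.06, limma adjusted p = 1.94e-06). CDCA8, a subunit of the chromosomal passenger complex, went from 9.25, 9.18 and 9.27 to 8.48, 8.65 and 8.52. PLK1, a kinase that drives entry into mitosis, went from 8.63, 8.59 and 8.56 to 8.02, 8.02 and 8.09. The clone's arrays were the lower in each case, with no overlap. Also lower were the kinesins CENPE (-0.69) and KIF11 (-0.67), the checkpoint kinase BUB1 (-0.65), the spindle protein TPX2 (-0.61), survivin, or BIRC5 (-0.59), topoisomerase TOP2A (-0.54), Aurora kinase A, or AURKA (-0.52), cyclin B1, or CCNB1 (-0.48), and CDK1 (-0.28).

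The fall in mitotic genes was found against the other groups too. The mean log2 value over the 36 genes was 8.65, 8.68 and 8.64 on the shCXCR4_I arrays, 9.14, 9.17 and 9.14 on the Parental arrays, 9.18, 9.23 and 9.22 on the Mock arrays and 8.94, 8.98 and 9.05 on the shCXCR4_II arrays. The clone's arrays were thus the lowest of the 12, and those of shCXCR4_II came next. Against Mock, 34 of the 36 were lower in shCXCR4_I (12.2% of all genes were lower, and 20.6% differed), with a median of -0.57. Against shCXCR4_II, 26 of the 36 were lower (1.65% of all genes were lower), with a median of -0.34. These comparisons share the arrays of shCXCR4_I. In Mock against Parental, 2 mitotic genes were higher (8.08% of all genes) and 1 lower (4.41%), and in shCXCR4_II against Parental 0 were higher (6.11%) and 11 lower (8.33%). Against Parental, 16 of 36 remained past the test with a minimum fold of 1.2.

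**Figure D2:**
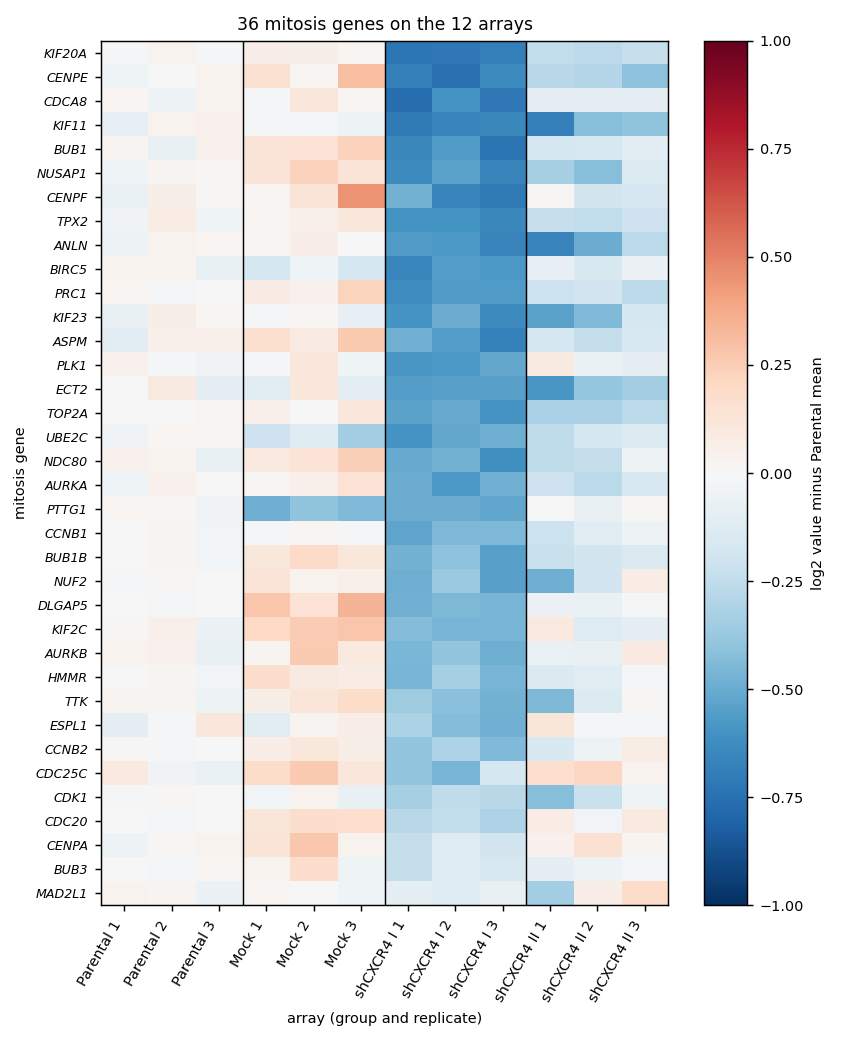
Log2 value minus the Parental mean (colour scale, blue lower and red higher) for the 36 measured mitosis genes (rows) on the 12 arrays (columns, by group and replicate). The 3 shCXCR4_I columns are blue in nearly all rows, and PTTG1 is the row in which Mock is clearly lower than Parental.

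DNA replication genes fell to a lesser extent. Of 36 measured, 21 fell and 1 rose, with a median of -0.26, where 7.44% of all genes fell and 7.06% rose. UHRF1, which links DNA methylation to replication, fell by 0.54, and the helicase subunits MCM5, MCM4, MCM2 and MCM7 fell by 0.46, 0.41, 0.40 and 0.39. Thymidylate synthase, or TYMS (-0.41), and the cyclins CCNE2 (-0.38) and CCNE1 (-0.33), which start S phase, were lower as well, and POLE2 was the one that rose (0.26). Against shCXCR4_II, 11 of the 36 were lower, where 1.65% of all genes were. Because the falls were small, 1 of 36 stayed past the test with a minimum fold of 1.2, and 13 at an adjusted p under 0.01. Among 19 measured p53 target genes, 9 fell and 2 rose. The falls included RRM2B (-0.69), PPM1D (-0.58), MDM2 (-0.51) and the cyclin-dependent kinase inhibitor CDKN1A (-0.21), and the death receptor FAS rose by 0.71. The count of 9 fell to 5 without Parental replicate 2 or without shCXCR4_I replicate 3, and to 1 with a minimum fold of 1.2. The BCL2 family had 1 of 20 genes up and 2 down, so that 15% passed the test, near the 14.5% of all genes.

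The stretches before PLK1, CDCA8 and KIF20A are shown as examples of the fallen mitotic genes. Capitals mark TTTGAA, the core of the cell cycle homology element, and CCAAT, which reads ATTGG on the other strand.
PLK1: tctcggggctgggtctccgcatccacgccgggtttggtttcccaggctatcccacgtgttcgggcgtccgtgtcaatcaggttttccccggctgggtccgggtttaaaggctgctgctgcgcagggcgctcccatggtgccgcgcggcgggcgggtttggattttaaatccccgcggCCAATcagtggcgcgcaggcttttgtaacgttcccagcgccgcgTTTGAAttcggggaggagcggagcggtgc
CDCA8: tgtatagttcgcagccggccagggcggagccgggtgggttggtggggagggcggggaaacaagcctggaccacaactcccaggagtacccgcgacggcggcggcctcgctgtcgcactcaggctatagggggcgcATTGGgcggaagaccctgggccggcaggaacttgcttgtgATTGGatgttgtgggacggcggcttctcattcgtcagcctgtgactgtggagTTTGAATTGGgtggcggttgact
KIF20A: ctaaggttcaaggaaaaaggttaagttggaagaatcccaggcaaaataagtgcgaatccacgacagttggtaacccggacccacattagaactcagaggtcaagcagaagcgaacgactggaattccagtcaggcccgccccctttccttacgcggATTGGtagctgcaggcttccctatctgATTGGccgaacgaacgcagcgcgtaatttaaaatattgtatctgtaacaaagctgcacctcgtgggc
They cover chr16:23678639-23678888 for PLK1, chr1:37692266-37692515 for CDCA8 and chr5:138178862-138179111 for KIF20A, all on the plus strand of GRCh38.p14 as RefSeq lists the starts. In CDCA8 the TTTGAA 23 bases before the start overlaps an ATTGG by 1 base. KIF20A has 2 ATTGG and no TTTGAA in this window. TTTGAA was present in 17 of the 28 fallen mitotic genes with a RefSeq promoter, against 13.9% of tested genes, and CCAAT in 22 of the 28, against 39.7%. TTTCCCGC, a form of the E2F site, was present in 0 of the 28 and in 3 of the 17 fallen replication genes with a promoter, against 2.31%.

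Cholesterol synthesis genes were lower in the clone. Of 19 measured genes of this pathway and its control, 12 fell and 0 rose (limma), where 7.44% of all genes fell. The median was -0.44, and at an unadjusted p under 0.05 1 was higher and 13 lower. INSIG1, which holds the regulator SREBP in the endoplasmic reticulum, stood at 9.36, 9.45 and 9.39 on the Parental arrays and at 8.23, 8.15 and 8.11 on the shCXCR4_I arrays (log2 fold change -1.24, SE 0.09, limma adjusted p = 5.03e-07). HMGCS1, an early enzyme of the pathway, went from 7.64, 8.04 and 8.15 to 6.73, 7.07 and 6.70 (-1.11, SE 0.17, limma adjusted p = 0.000621). Both groups were more spread for HMGCS1 than for INSIG1, and in neither gene did they overlap. Lower too were the sterol carrier STARD4 (-0.69), the reductase DHCR7 (-0.61), lanosterol synthase LSS (-0.60), SQLE (-0.49) and FDPS (-0.46). The other transfected cells were low in these genes as well. INSIG1 was 8.34 in Mock and 8.09 in shCXCR4_II, HMGCS1 was 6.95 and 6.84, and against shCXCR4_II 0 of the 19 passed the test (limma), while at an unadjusted p under 0.05, 2 were higher and 2 lower. Against Parental, 6 of 19 passed with a minimum fold of 1.2, and 7 of 14 without probe sets named _x_at or _s_at.

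Of 16 measured genes of fatty acid synthesis, 7 fell and 0 rose, where 7.44% of all genes fell. The desaturase SCD5 fell most (-1.38), from 6.24, 6.11 and 6.67 to 4.91, 4.93 and 5.03. ACSS2 (-0.48), ELOVL6 (-0.47), ME1 (-0.43) and ACLY (-0.41), which supply or extend the carbon chain, fell by less, and 1 of 16 passed with a minimum fold of 1.2. The stretches before HMGCS1 and INSIG1 are given with CCAAT, or ATTGG, in capitals, since NF-Y, the factor that binds it, is known to act beside SREBP.
HMGCS1: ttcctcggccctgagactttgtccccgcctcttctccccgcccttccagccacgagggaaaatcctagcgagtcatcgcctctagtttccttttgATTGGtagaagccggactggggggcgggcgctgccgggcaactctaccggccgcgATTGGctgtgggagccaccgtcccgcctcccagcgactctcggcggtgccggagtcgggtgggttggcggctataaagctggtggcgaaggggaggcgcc
INSIG1: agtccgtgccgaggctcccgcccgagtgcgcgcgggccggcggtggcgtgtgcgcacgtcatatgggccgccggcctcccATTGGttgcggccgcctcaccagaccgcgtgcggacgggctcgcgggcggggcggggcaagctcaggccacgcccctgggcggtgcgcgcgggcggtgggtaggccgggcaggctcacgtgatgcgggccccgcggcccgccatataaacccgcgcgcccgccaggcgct
These are chr5:43313413-43313662 on the minus strand for HMGCS1, the first of 2 starts in the table, and chr7:155297628-155297877 on the plus strand for INSIG1. CCAAT was present in 11 of the 11 fallen cholesterol genes with a promoter, against 39.7% of tested genes, and CACCCCA, a form of the sterol response element, in 1 of the 11, against 9.33%. CACCCCA was also in 2 of the 7 fallen fatty acid genes with a promoter (ACSL1 and ACSS2) and in 4 of the 6 risen cytokine genes (IL32, CXCL1, CXCL2 and CCL28). Of the 9 motifs searched, TGAGTCA (AP-1, 4.62% of tested genes), TTGCATCA (amino acid response, 0.826%), the serum response motif CArG (0.0455%) and TGCGCNC (metal response, 26.6%) were looked for in the same way. TGCGCNC was in 14 of the 28 fallen mitotic genes, CArG in 1 of the 7 risen ERK feedback genes with a promoter, and TTGCATCA in 0 of the 5 risen genes of serine synthesis and ATF4 with one, while TGAGTCA was in 1 of the 6 cytokine genes.

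Some epithelial genes rose by small amounts, while few mesenchymal markers changed. Of the 29 measured genes of epithelial junctions and polarity, 7 rose and 3 fell, with a median of 0.09, and 3 rose with a minimum fold of 1.2. The membrane protease ST14, or matriptase, rose by 0.76, and the tight junction proteins CLDN3 and CLDN1 by 0.61 and 0.53. E-cadherin, or CDH1, the adhesion protein that defines epithelia, went the other way, from 8.70, 8.75 and 8.84 to 8.27, 8.13 and 8.14 (log2 fold change -0.59, SE 0.07, limma adjusted p = 8.17e-05), and was lower still in shCXCR4_II, at 7.21. Of 12 measured keratins 5 rose and 0 fell, where 7.06% of all genes rose. KRT18 was at 0.42 and KRT19 at 0.36, and 0 passed with a minimum fold of 1.2. In Mock against Parental 4 of the 12 rose and 1 fell. KRT18 and KRT19 averaged 11.305 and 11.444 in Mock and 11.312 and 11.404 in shCXCR4_I. Against Mock, 2 of the 12 were higher in shCXCR4_I and 2 lower, and against shCXCR4_II 5 were higher and 0 lower. Of 19 measured mesenchymal markers 0 rose and 2 fell, with a median of 0.03. Thus 10.53% of them passed the test, where 14.5% of all genes did. The falls were N-cadherin, or CDH2 (-1.19), and the myosin light chain MYL9 (-1.00), whose call ended without probe sets named _s_at. CDH2 stood at 6.73, 6.42 and 6.30 and at 5.32, 5.30 and 5.25. Of these markers 15 of the 19 had a Parental mean below 6, a range in which a fall is hard to see.

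Receptors and proteases at the cell surface moved in both directions. Of 18 measured integrin chains, 4 rose and 3 fell. ITGA5, the chain that pairs in the fibronectin receptor, rose from 7.30, 7.26 and 7.17 to 8.18, 8.10 and 8.08 (log2 fold change 0.88, SE 0.09, limma adjusted p = 1.63e-05), while Mock had 7.05. ITGA3 (0.66), ITGA2 (0.62) and ITGB4 (0.55) rose, and ITGB8 (-0.72), ITGB2 (-0.71) and ITGB5 (-0.25) fell. Of 24 other adhesion molecules, 4 rose and 1 fell, led by the kidney cadherin CDH16 (0.67) and the neuronal adhesion molecule NRCAM (0.56). Of 39 measured matrix genes, 4 rose and 7 fell, and after NPNT and THSD7A the basement membrane protein NID2 moved most (-0.87), from a mean of 10.99 ± 0.013 (SD, n = 3) to 10.15, 10.15 and 10.06. The 4 matrix rises became 2 without Parental replicate 1 or without shCXCR4_I replicate 1 or 2.

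Of 44 measured extracellular proteases and inhibitors, 7 rose and 7 fell. The protease PLAU rose from 7.35, 7.26 and 7.46 to 9.04, 8.94 and 9.01 (log2 fold change 1.64, SE 0.07, limma adjusted p = 6.95e-09), and SERPINE2, an inhibitor of thrombin and urokinase, fell from 6.90, 6.91 and 6.72 to 5.64, 5.54 and 5.67 (-1.23, SE 0.11). For PLAU the clone's arrays lay above every other array, with means of 7.56 in Mock and 7.52 in shCXCR4_II. SERPINE2 was 5.33 in Mock and 5.28 in shCXCR4_II. The secreted inhibitor SLPI rose by 0.85, and the inhibitor TFPI2 fell by 1.51 from a low level. The count of 7 falls was 4 without shCXCR4_I replicate 2 or 3.

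Among 23 measured ovarian cancer markers, 9 rose and 1 fell, with a median of 0.16. CRABP2, a carrier of retinoic acid, rose by 1.18, and the cell surface mucin MUC1 rose from 8.52, 8.40 and 8.51 to 9.84, 9.55 and 9.45 (log2 fold change 1.14, SE 0.09, limma adjusted p = 1.83e-06). The secretoglobin SCGB1D2 (0.98), SLPI (0.85) and the antigen PRAME (0.68) followed, and the phosphate transporter SLC34A2 fell (-0.82). MUC1 was 8.62 in Mock and 8.63 in shCXCR4_II, below all 3 arrays of the clone. Of 25 measured cancer-testis genes, 1 rose and 1 fell, PRAME and MAGED1 (-0.39).

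**Figure D3:**
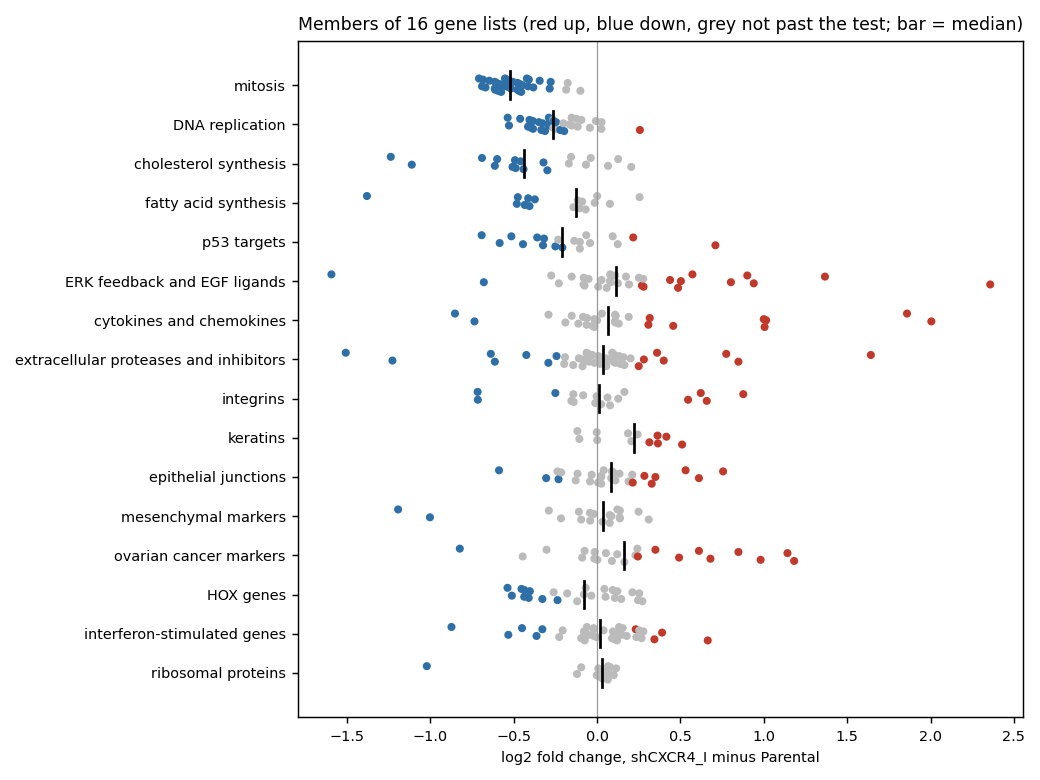
Log2 fold change, shCXCR4_I minus Parental (x axis), of each measured gene of 16 gene lists (rows), red for genes past the test and higher, blue for past the test and lower, grey for the others, with a bar at each list's median. The mitosis points lie almost wholly left of 0 with a median of -0.52, while ribosomal protein genes lie close to 0 with a median of 0.03.

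Among regulators of development, more fell than rose. Of 25 measured HOX genes 0 rose and 9 fell, where 7.44% of all genes fell. Among the 9 were HOXB6 (-0.54, not past the test without _s_at probe sets), HOXB7 (-0.51), HOXB3 (-0.45) and HOXB2 (-0.44), all of the HOXB cluster. With a minimum fold of 1.2, 1 of the 25 passed. Of 13 genes of the DACH and EYA network 0 rose and 4 fell. DACH1, a transcriptional corepressor, stood at 5.50, 5.53 and 5.48 and at 2.52, 2.45 and 2.82 (log2 fold change -2.91, SE 0.09, limma adjusted p = 1.45e-10), and EYA4 fell by 1.51. The clone's DACH1 values lay below the array median, and Mock was higher than Parental at 7.01. Among 36 other lineage factors, 5 rose and 7 fell. RUNX2, the regulator of bone formation, went from 7.21, 7.15 and 7.24 to 5.74, 5.71 and 5.58 (-1.52, SE 0.07), and TOX3 fell by 1.29, while the epithelial factor EHF rose by 0.84 and KLF4 by 0.65.

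Of 36 measured Wnt pathway genes 1 rose and 9 fell, where 7.44% of all genes fell. The 9 include the transcription factors TCF7L1 (-1.32) and TCF7L2 (-0.58), the receptors FZD1 (-1.05) and FZD2 (-0.77) and the secreted inhibitor DKK3 (-0.79). TCF7L1 stood at 6.49, 6.37 and 6.33 and at 5.21, 5.05 and 4.96, with no overlap, and at 7.28 in Mock. Of 32 measured receptor tyrosine kinases and ephrins 2 rose and 6 fell. After KIT these were led by EPHA4 (-1.81), which went from 7.98, 7.91 and 7.95 to 6.19, 6.06 and 6.15, and FGFR2 (-1.25, not past the test without _s_at probe sets), and ROR1 rose (0.78). EPHA4 in Mock (6.24) and FGFR2 in Mock (6.97) were near the clone's means of 6.13 and 7.01. Of 29 Notch pathway genes 3 rose and 4 fell, with the target HES1 at 1.00, not past the test without _s_at probe sets, and the ligand JAG2 at 0.68, and 2 fell without Parental replicate 2 or shCXCR4_I replicate 2 or 3. Of 37 TGF-beta and BMP genes 3 rose and 10 fell, where 7.44% of all genes fell. The activin subunit INHBB was at -0.72, the repressor SKIL at -0.56 and the BMP antagonist NOG, from a low level, at 0.90. The count of 10 ranged from 4 to 6 when any 1 of the 6 arrays was left out.

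Metabolic and stress genes changed in part. Of 32 measured genes of serine synthesis and ATF4, the factor of the amino acid response, 8 rose and 3 fell. PHGDH, the first enzyme of serine synthesis, rose from 7.53, 7.36 and 7.45 to 8.49, 8.47 and 8.48 (log2 fold change 1.03, SE 0.07, limma adjusted p = 1.77e-07), and PCK2 rose by 0.91 and ASNS, on an _s_at probe set without which its call ended, by 0.96, whereas CTH, which makes cysteine, fell by 1.45. PHGDH was 6.58 in Mock and 8.33 in shCXCR4_II. Of 19 genes of the unfolded protein response 2 rose and 1 fell, so that 15.79% passed the test, near the 14.5% of all genes. Of 31 measured NRF2 target and glutathione genes 7 rose and 8 fell, with GSTM3 at 0.92, GPX2 at 0.78, AKR1C3 at -0.91 and GCLM at -0.69. GSTM3 was high in Mock (12.10) and shCXCR4_II (12.24) too. The 8 falls became 5 without Parental replicate 3 or shCXCR4_I replicate 2. Of 36 glycolysis and hypoxia genes 6 rose and 5 fell. The hypoxia factor EPAS1 went from 8.93, 9.04 and 9.12 to 8.01, 8.02 and 7.97, and ENO2 rose by 0.81. The 5 falls became 3 without Parental replicate 2 or 3 or shCXCR4_I replicate 1 or 3. Of 24 ABC transporters 1 rose and 7 fell, led by ABCA1 (-0.97) and ABCB10 (-0.90). ABCA1 was low in both groups and its probe sets differ, since 216066_at gave 0.015, with no call, while 203505_at fell by 1.10. The drug efflux pump ABCB1 fell by 0.61 from 3.35, a level below the array median. The metallothionein MT1X, a metal-binding protein, went from 8.31, 8.30 and 8.31 to 6.83, 6.80 and 6.94.

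An shRNA can set off antiviral sensing, and those genes are therefore given. At the median the interferon-stimulated genes lay where all genes lay. Of 38 measured interferon-stimulated genes 4 rose and 5 fell, with a median of 0.02. ISG20 rose by 0.66, and CMPK2 and IFIT2 fell by 0.87 and 0.53, and 2 of the 38 rose without shCXCR4_I replicate 3. Of 16 RNA sensors and antiviral kinases 1 rose and 0 fell, TICAM1 by 0.26, a call that ended when any array but Parental replicate 1 was left out. Of 17 genes of the RNA interference machinery 0 rose and 5 fell, with FXR1 at -0.46 and TNRC6A at -0.45, and that count was 2 or 3 when any of 5 of the 6 arrays was left out. Of 19 genes of class I antigen presentation 5 rose and 0 fell, where 7.06% of all genes rose. The rises were the regulator NLRC5 (0.62), HLA-F (0.52), HLA-B (0.35), HLA-C (0.28) and HLA-E (0.26). In Mock against Parental 6 of the 19 rose and 0 fell, where 8.08% of all genes rose. HLA-F, HLA-B and HLA-C averaged 8.387, 9.774 and 11.082 in Mock and 8.432, 9.723 and 11.105 in shCXCR4_I. NLRC5 was 4.398 in Mock and 5.059 in shCXCR4_I. Against Mock, 1 of the 19 was higher in shCXCR4_I and 2 were lower. The HLA genes are near-identical copies read on _x_at probe sets in part, and 2 of 14 rose without probe sets named _x_at or _s_at, where the value of HLA-F turned to -0.051 with no call.

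Lists of markers of other cell types held few calls. Of 17 leukocyte markers and 13 fibroblast and smooth muscle markers 0 rose and 0 fell (limma). At an unadjusted p under 0.05, 1 leukocyte marker was higher and 0 lower, and of the fibroblast and smooth muscle markers 1 was higher and 1 lower. Of 12 endothelial markers 1 fell, CDH5 by 0.70 at a mean of 3.23 in Parental, and of 8 mesothelial markers 1 rose, UPK3B by 0.45. Of 18 ribosomal protein and translation genes 0 rose and 1 fell, EEF1A2 by 1.02. Of 22 imprinted genes 3 rose and 4 fell, led by PEG10 at -1.33, and 2 fell without Parental replicate 2 or shCXCR4_I replicate 3.

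Some genes set shCXCR4_I apart from all 9 other arrays. They had to pass the test against Parental, against Mock and against shCXCR4_II in 1 direction with no overlap of arrays, and 202 genes (1.02%) did so upward and 164 (0.829%) downward. The 8 up with the largest smallest difference were PLAU, CXCL1, CCN3, CXCL8, MUC1, EPPK1, FOS and CXCL3, and the 8 down were GLIS3, KLHL13, MT1X, CDCA8, PEG10, GAL, PLK1 and ACOT7. CCN3 stood at 7.08, 7.14 and 7.11 on the Parental arrays and at 9.01, 8.90 and 8.94 on those of the clone, with 7.70 in Mock and 7.71 in shCXCR4_II. The cytolinker EPPK1 rose from 6.89, 6.85 and 6.85 to 8.09, 7.79 and 7.96, with 7.02 and 6.79 in the other groups. For each of these genes the rule required the clone's arrays to lie beyond the other 9. GLIS3, a zinc finger transcription factor, went from 7.20, 7.41 and 7.37 to 6.09, 6.11 and 5.88, with 6.82 in Mock and 6.67 in shCXCR4_II. KLHL13, an adaptor of a ubiquitin ligase in mitosis, went from arrays between 8.95 and 9.04 to 8.13, 8.12 and 8.10, with 8.90 and 8.73 in the others. PEG10, an imprinted gene derived from a retrotransposon, went from 9.54, 9.78 and 9.58 to 8.40, 8.33 and 8.17.

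Genes that lie next to each other shifted together in a few places. Genes were put in the order of the RefSeq gene table, those with a mean log2 value of at least 5 were kept (10847 genes), and the median log2 fold change was taken over each window of 25 neighbours. Over the 10295 windows these medians had an SD of 0.078. The highest window was on chromosome X, from OCRL through RAP2C to INTS6L, with a median of 0.51. All 25 of its genes were above 0, and 20 of them passed the test upward. Over the same 25 genes, against Parental, the median was 0.33 in shCXCR4_II, with 18 up and 0 down. In Mock it was 0.11, with 9 up and 1 down. The lowest window in shCXCR4_I was on chromosome 1, from ELOA through RCAN3 to PDIK1L, with a median of -0.28, where 13 fell and 1 rose. Stretches in which at least 5 neighbouring windows passed 0.2 in either direction were chosen after their values were seen, and are described without a test.

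**Figure D4:**
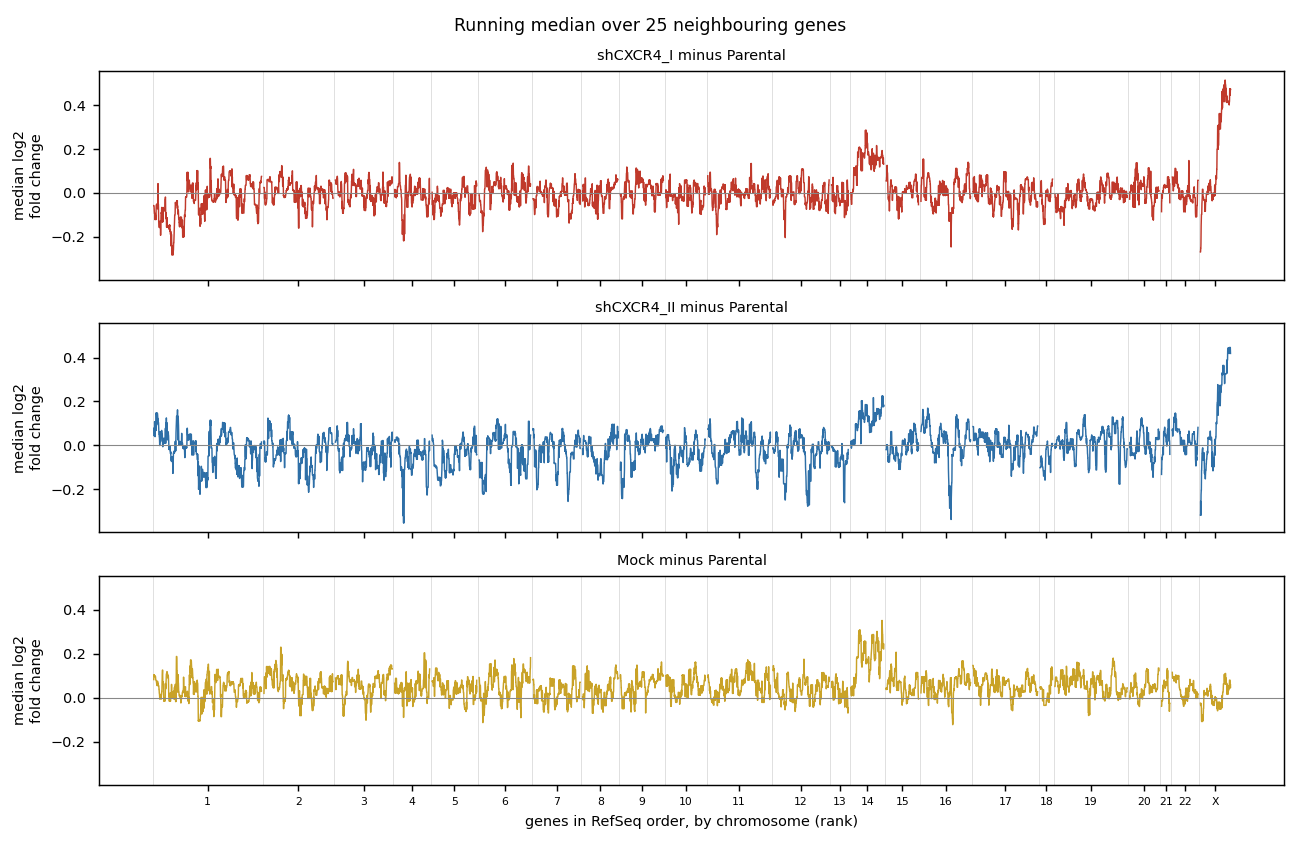
Running median of the log2 fold change over 25 neighbouring genes (y axis) along the chromosomes (x axis, rank of genes in RefSeq order) for shCXCR4_I, shCXCR4_II and Mock, each minus Parental. The end of chromosome X rises to 0.51 in shCXCR4_I. Over the 25 genes of that window the median is 0.33 in shCXCR4_II and 0.11 in Mock. Chromosome 14 is raised in all 3.

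The longest stretch was the end part of chromosome X from TSPAN6 to LAGE3. Of its 124 genes, 117 were above 0, 90 rose and 1 fell, with a median log2 fold change of 0.41. A block of 25 genes before it, which ends some genes short of TSPAN6, had a median of 0.04. Its border is thus not sharply placed. Also before it on chromosome X, 5 genes from ITM2A to ZNF711 formed another raised stretch, with a median of 0.29. In shCXCR4_II the median over the same 124 genes was 0.33, with 79 up and 4 down, and in Mock it was 0.03, with 17 up and 6 down, all against the same Parental arrays. Against Mock, shCXCR4_I had a median of 0.35 with 86 up and 3 down, where 8.45% of all genes were higher, and against shCXCR4_II 0.07 with 14 up and 2 down, where 3.56% were. Among the genes were SLC6A8, the creatine transporter (1.55), LAMP2, a lysosomal membrane protein (1.05), and HS6ST2, a heparan sulfate sulfotransferase (0.95). KLHL13 was the exception that fell, at -0.88. SLC6A8 was also high in Mock, at 7.64 against 6.34 in Parental and 7.89 in the clone. Over the alternatives in which all 124 genes were tested, 79 to 96 rose, except that 30 did with a minimum fold of 1.2.

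**Figure D5:**
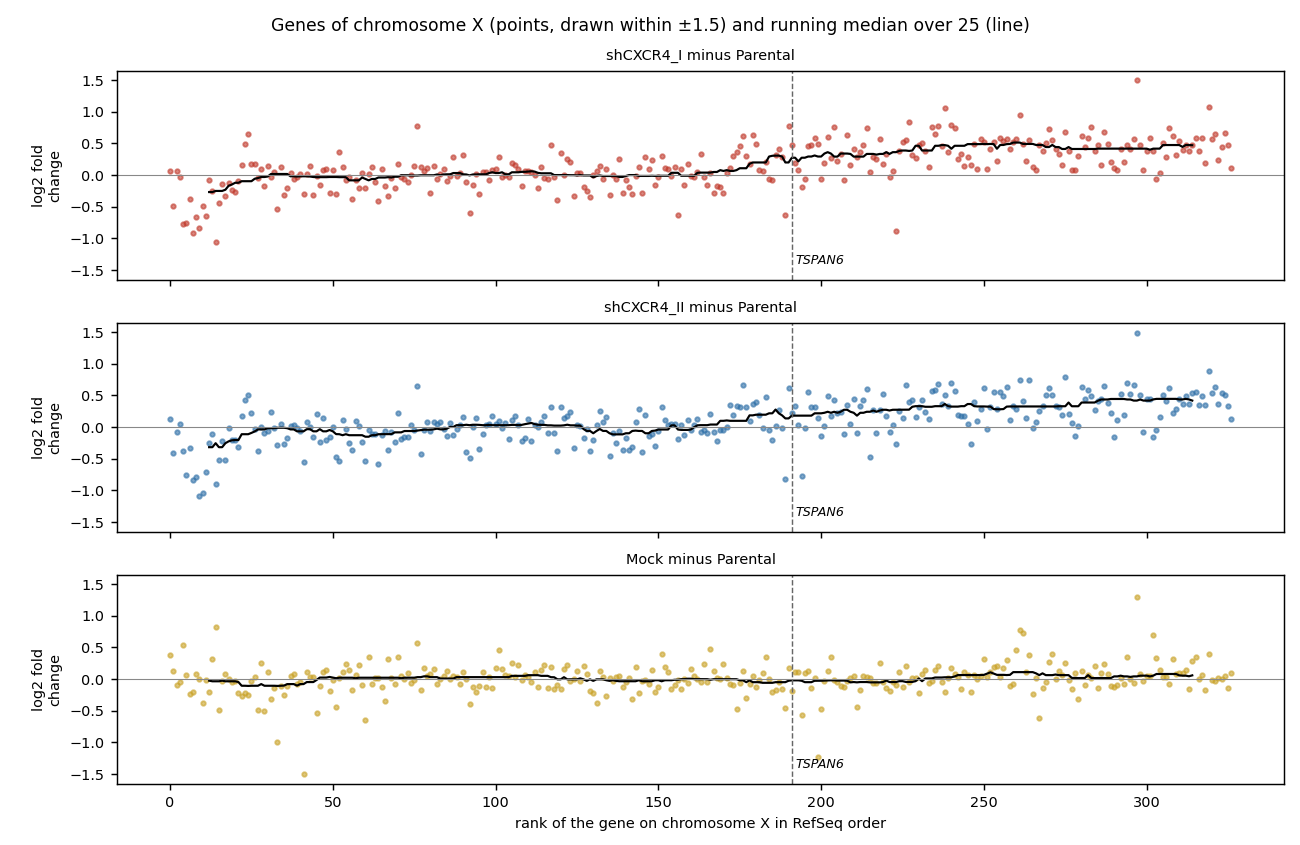
Log2 fold change (y axis) of each gene of chromosome X with a mean log2 value of at least 5 (points, drawn within ±1.5) in RefSeq order (x axis, rank), with the running median over 25 genes (line), for shCXCR4_I, shCXCR4_II and Mock against Parental. Right of the dashed line at TSPAN6 the shCXCR4_I points lie mostly above 0 with a median of 0.41, and the first genes of the chromosome lie below 0 in both clones.

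The opposite end of chromosome X went down. Of its first 15 genes in this order, which end with STS, 11 fell and 0 rose in shCXCR4_I, with a median of -0.50. In shCXCR4_II 10 fell and 0 rose, with a median of -0.41, and in Mock 4 rose and 1 fell, with a median of -0.003. STS, the steroid sulfatase, had log2 means of 6.64 in Parental, 5.58 in shCXCR4_I, 5.73 in shCXCR4_II and 7.46 in Mock. ARSD, an arylsulfatase gene of the same stretch, differed from Parental by -0.83 in shCXCR4_I and by -1.09 in shCXCR4_II.

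On chromosome 1 a stretch of 25 genes from STPG1 to ARID1A was lower in the clone, with a median of -0.28, and 24 of the 25 were below 0. Of these, 14 fell and 0 rose. They include CLIC4, an intracellular chloride channel protein (-0.53), the splicing protein SRRM1 (-0.44) and the microtubule regulator STMN1 (-0.42). In shCXCR4_II the median was -0.08 with 1 up and 4 down, and in Mock 0.03 with 1 up and 2 down. Against shCXCR4_II itself, the clone was lower at 6 of the 25 genes and higher at 0. A block of 25 genes before the stretch had a median of -0.15 and one after it -0.04, neither of them directly adjacent to it. With a minimum fold of 1.2, 2 of the 25 fell, at an adjusted p under 0.01 8 of them, without Parental replicate 3 or shCXCR4_I replicate 3 9 of them, and without probe sets named _x_at or _s_at, 6 of 17.

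Chromosome 14 was raised along its length, with a median of 0.13 over 357 genes, of which 100 rose and 14 fell. The medians over the same genes were 0.18 in Mock and 0.11 in shCXCR4_II, against the same Parental arrays. The strongest parts in shCXCR4_I ran from MIA2 to VCPKMT (19 genes, median 0.21, 0.31 in Mock) and from DHRS7 to GPHN (26 genes, median 0.25, 0.17 in Mock).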

How the data were processed

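Total RNA of IGROV-1 cells was read on Affymetrix Human Genome U133 Plus 2.0 arrays, 3 per group. The authors deposited log2 values per probe set, made with RMA in R 2.6.0 per the submitters' processing notes. Which chip definition file and background step were used is not given in the sources used here. RMA puts all arrays on a common distribution, so a shift of most genes in 1 group would not be seen.

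A group-means model was fitted to all 12 arrays with limma 3.58.1 in R 4.3.3 over the 41097 probe sets with 1 gene symbol, and p-values were adjusted over all of them (Benjamini-Hochberg). Past the test means an adjusted p under 0.05. Of 54675 probe sets, 1801 with several symbols and 11777 with none were left out, 62 of them controls. For each gene the brightest of its probe sets, averaged over all 12 arrays, was read (10523 genes had several). The design has 8 residual degrees of freedom, and the number of arrays limits the precision. Arrays were grouped by their titles, and the model was tested on simulated data.

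Named genes were CXCR4, CXCL12 and ACKR3; the 12 largest rises and 12 largest falls among genes past the test, with no overlap of arrays and a mean of at least 6 in the higher group; the 8 rises and 8 falls with the largest smallest difference from the 3 other groups; up to 4 members per list; and the ends and centre of a window. Further list members and the genes named in stretches of neighbours were chosen after their values were seen. The members and the 43 gene lists (1012 of 1118 genes measured) were chosen with earlier results of these data known.

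Same-numbered arrays of the compared groups correlated at 0.0267, 0.0262 and 0.0249 in their deviations from the group means. Differently numbered arrays lay lower, between -0.0349 and 0.00911. All values were under 0.1, and whether the numbers pair the arrays was not tested. The main fit did not use the replicate number. The alternatives covered scaling, filters, probe sets, variance models, call rules, the replicate block and leaving out each array. Promoter sequences came from RefSeq (27305 genes with an entry, 15384 of them tested), and 9 motifs were searched on both strands.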

Additional observations from a re-analysis of the deposited data

Results flagged for a closer look

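For 75 of the 175 genes chosen for naming, the shift from Parental to shCXCR4_I differed from the shift to shCXCR4_II, that is, the gene passed the test against Parental and the direct difference between the clones passed it too (limma adjusted p under 0.05). Over all genes, 5.21% passed the test between the clones. The named genes cannot be set against that share, since most were picked for large changes on the shCXCR4_I arrays. The genes named for lying beyond all other arrays were chosen partly by this difference. Every value here is shCXCR4_I minus shCXCR4_II on the log2 scale. Groups of 3 arrays were not examined for outlying arrays.

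Among the chemokines, shCXCR4_I minus shCXCR4_II was 1.63 for CXCL8, 1.58 for CXCL1 and 0.90 for CXCL3. The protease PLAU differed by 1.48, the matricellular CCN3 by 1.24, the transcription factor FOS by 1.16, the cytolinker EPPK1 by 1.15 and the mucin MUC1 by 0.98. LGALS3 differed by 0.83, UNC93A by 0.77, FGFBP1 by 0.70 and VAC14-AS1 by 0.54, each having risen in shCXCR4_I.

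Some genes that fell in shCXCR4_I were lower still in shCXCR4_II. The difference was 1.32 for KCTD12, 1.21 for THSD7A, 1.16 for LRATD1, 0.94 for PDGFC and 0.52 for DPYSL2. For CXCR4 itself it was 0.47 on 217028_at, and the clones were closer on its other probe sets. Others were lower in shCXCR4_I than in shCXCR4_II. These were GLIS3 (-0.64), KLHL13 (-0.61), MT1X (-0.59), CDCA8 (-0.59), PEG10 (-0.54), GAL (-0.54), PLK1 (-0.53) and ACOT7 (-0.52).

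Among the genes named from the lists, those of epithelial identity and adhesion mostly had the higher value in shCXCR4_I. The difference was 0.97 for CDH1 (E-cadherin), 0.42 for GJB1, 0.34 for GJB5, 0.37 for KRT18, 0.41 for KRT13 and 0.30 for KRT19. It was 0.76 for the integrin ITGA3, 0.42 for ITGB8, 0.54 for L1CAM, 0.25 for the basement membrane gene NID2 and -0.46 for the myosin light chain MYL9. The epithelial factors EHF and KLF4 differed by 0.43 and 0.68.

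Of secreted and immune genes, SLPI differed by 1.67, CXCL2 by 1.05, SCGB1D2 by 0.53, CMPK2 by 0.83, ISG20 by 0.55 and IFIT2 by 0.42. NLRC5, the activator of class I genes, differed by 0.42, HLA-B by 0.42, HLA-C by 0.31 and HLA-F by 0.30. Genes of division were lower in shCXCR4_I, with KIF20A at -0.46, CENPE at -0.36, MCM4 at -0.31 and MCM5 at -0.29.

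Of signalling genes, PHLDA1 differed by 1.32, NOG by 0.76, FZD1 by 0.69, SKIL by 0.61, ROR1 by 0.60, EGR1 by 0.59, GRB10 by 0.40 and FGFR2 by -0.59. Of developmental genes, HOXB3 differed by 0.36, HOXB2 by 0.33, PAX6 by -0.42 and EYA3 by -0.40. The death receptor FAS differed by 0.61, GPX2 by 0.54, PCK2 by 0.42, ADM by 0.39, CTH by 0.38, SEL1L by 0.32, PRAME by 0.32 and ASNS by 0.30. BCL2L15 differed by -0.36 and ABCB10 by -0.49.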

How the results depend on the processing

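Of the 2868 genes past the test, 1696 stayed at an adjusted p under 0.01, and 583 when the change had to exceed 1.2-fold. With only genes of mean log2 of at least 6, 81 rather than 143 genes passed at 2-fold. Leaving out any 1 of the 6 arrays gave 2024 to 2196 genes past the test and 135 to 142 at 2-fold. In the other alternatives the counts stayed within 1.5 times of these values, and CXCR4 stayed past the test in all 19. Of 175 named genes, 104 kept direction and call in all 19. The sign turned for ABCA1 (0.015) and HLA-F (-0.051) without probe sets named _x_at or _s_at, where the brightest remaining probe set is read, 216066_at for ABCA1 and 221978_at for HLA-F. A further probe set of ABCA1, 203505_at, fell by 1.10.

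With the replicate number as a block, 2601 genes passed the test, 143 at 2-fold, and the value of CXCR4, shCXCR4_I against Parental, was -1.24 (limma adjusted p = 3.22e-06).

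Signal near the bottom of the scale limits fold sizes, since 29 of the 143 genes had a lower group below the array median. Runs of neighbouring genes were recomputed under alternatives added after they were seen.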
